A study of Rattus norvegicus with 8 samples.

Results

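The regions described here are long runs of promoter probes, that is, places where the probes of a rat promoter array followed each other over much more sequence than 1 promoter window holds. Probes were placed on the rat genome (build rn4) by the positions in the array files, and neighbouring autosomal probes belonged to the same run when no more than 500 bp lay between the end of one and the start of the next. A run was taken as long when it spanned 2000 bp or more from its first to its last base. This held for 1476 of the 26587 autosomal runs (27757 runs with the X chromosome), and these long runs contained 73540 of the 375449 distinct probes. They were compared with the 15287 autosomal runs that spanned 900 to 1400 bp, called short runs below, which is about what a single promoter window of the array covers.

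DNA methylation was measured in the prefrontal cortex (PFC) of male Sprague-Dawley rats at postnatal day (PND) 62. The 4 PNS rats came from dams that were restrained repeatedly each day through the final week of pregnancy, and the 4 Ctrl rats came from dams that were not handled in this way. Each rat came from a litter of its own and has 1 array. The 4 slides each carried a Ctrl rat at array position 1 and a PNS rat at position 2, so array position and group cannot be told apart. Methylated fragments of sheared DNA were pulled down with an antibody against 5-methylcytosine (MeDIP), labelled with Cy5 and hybridized together with Cy3-labelled input DNA of the same rat. A level below is the log2 ratio of bound over input after quantile normalization. It ranks regions by their enrichment for methylated DNA within an array and is not a percentage of methylated cytosines. Since PFC is a mixture of cell types, a change of methylation within cells and a change in the share of a cell type cannot be told apart. The files hold DNA signals alone, so the labelled tissue was not checked against expression markers. The share of spots well above background was 61.0 to 72.9% for input and 43.6 to 67.1% for bound DNA. Values of the 4 Ctrl rats are given in the order C180, C182, C184 and C185 and those of the 4 PNS rats in the order C141, C142, C144 and C145, so that rats in the same place shared a slide. On the arrays of Ctrl rats C180 and C182 and PNS rat C141 the log ratios had an SD of 0.622 to 0.712 before normalization, against 0.994 to 1.23 on the other 5.

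In mammals most cytosine methylation sits at CpG dinucleotides. Promoters rich in CpG are usually free of it in most tissues, whereas CpG-poor promoters and gene bodies are usually methylated. Pairs of genes that start back to back, genes with several alternative start sites and clusters of closely packed genes place start sites side by side, and the windows designed around them then merge on an array. MeDIP pulls down fragments that carry methylated cytosines, at CpGs or elsewhere. As most of these sit at CpGs, a low level can mean either unmethylated CpGs or few CpGs. No probe sequence and no gene name of rn4 was used here, so the regions are given by position.

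The spans of the long runs did not form a single falling tail. Of the 1476 long runs, 379 spanned 2000 to 2500 bp, 663 spanned 2500 to 5000 bp, 399 spanned 5000 to 10000 bp and 35 spanned more. Their median span was 3315 bp, and the longest reached 18490 bp. However, 84 of them measured between 9000 and 9400 bp, which stood out as a second peak. When the probes were joined over gaps of up to 2000 bp into what are called stretches here, 388 of 23075 stretches measured 9000 to 9500 bp, compared with 119 over the whole range from 5000 to 8000 bp. In total 665 long runs (45.1%) lay inside stretches of 8500 to 9800 bp, usually as fragments, as 95 of these runs were alone in their stretch. A window of that size is not described for this array in the sources used here. By contrast, 336 long runs (22.8%) lay in stretches under 4000 bp, and 326 of them were alone there. These 336 are called compact long runs below. They are the ones whose size fits a few overlapping promoter windows, and the rest cannot all be described that way. A further 203 lay in stretches of 4000 to 8500 bp and 272 in longer ones. These classes use positions alone, but their limits were set after the spans and earlier results of these data had been seen.

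**Figure D1:**
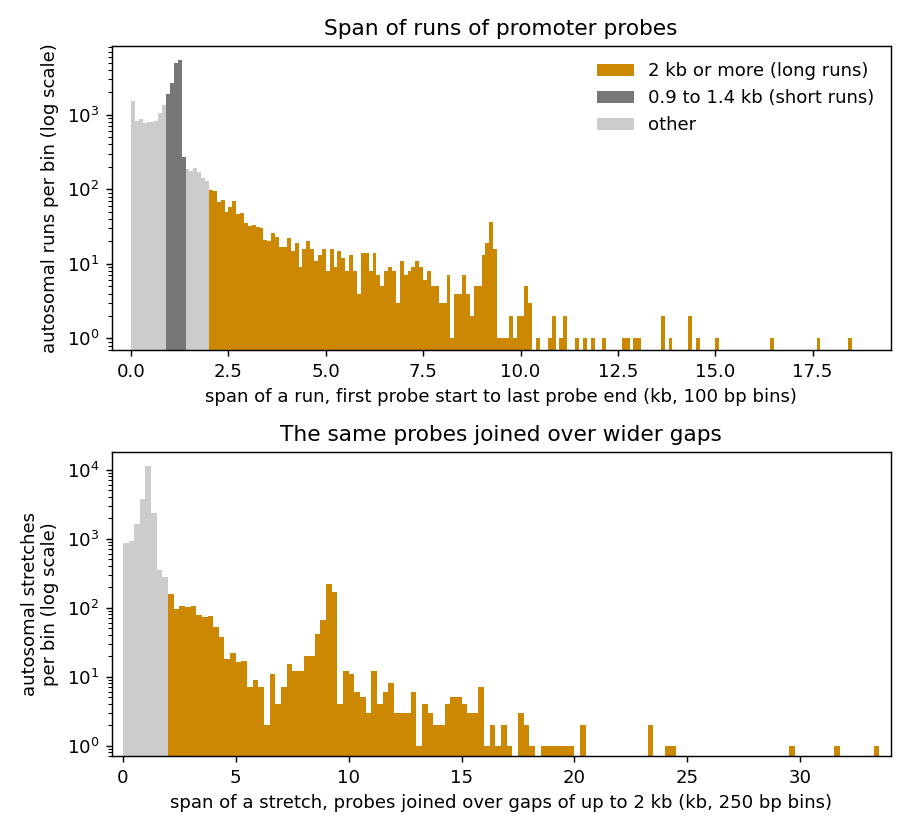
The upper panel shows the number of autosomal runs by span in kb (100 bp bins, log scale), with long runs in orange, short runs in dark grey and other runs in light grey; the lower panel shows the same probes joined over gaps of up to 2 kb (250 bp bins, log scale, orange from 2 kb). Besides the peak of single windows near 1.2 kb, both panels have a second peak between 9.0 and 9.5 kb, which holds 388 stretches in the lower panel.

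Long runs had 12 to 234 probes (median 39), and short runs had 3 to 25 (median 14). Probes were about equally dense in both, with medians of 11.4 per kb in long and 12.2 per kb in short runs. The probes were 45 to 60 nt long, and long runs had 18.0% of 45-mers and 40.5% of 60-mers, against 19.9% and 41.7% in short runs. In the input channel, 59.9% of probes in long and 57.3% in short runs were well above background on all 8 arrays. As a whole, the long runs stood apart in their neighbourhood: the nearest other run was a median of 867 bp away, compared with 21309 bp for short runs. Another run lay in the same stretch for 68.2% of long runs and 7.03% of short runs. Of the compact long runs 326 of 336 were alone in their stretch, but their limit of under 4000 bp per stretch largely fixes this. Their distance to the nearest run is not given here. Long runs made up 5.55% of autosomal runs, from 3.68% on chromosome 15 (31 runs) to 7.61% on chromosome 20 (61 runs) and 7.71% on chromosome 10 (164 runs). At the limit of the definition, the 5 long runs just inside spanned 2002 to 2006 bp with 21 to 28 probes, and the 5 runs just outside spanned 1992 to 1999 bp with 19 to 28 probes.

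Long runs as a whole were slightly less enriched for methylated DNA than short runs. The median level over long runs was -0.205, -0.137, -0.241 and -0.250 in the Ctrl rats and -0.114, -0.258, -0.243 and -0.248 in the PNS rats. Over short runs it ranged from -0.168 to -0.129. Long runs were therefore lower in 6 of 8 rats and higher in C141 and C182, which are among the 3 rats with a narrow spread of log ratios. The difference averaged -0.057 ± 0.044 (SD, n = 8; exact sign-flip permutation test over arrays, two-sided p = 0.031, and the same after Benjamini-Hochberg adjustment over the 3 comparisons of long with short runs). In the quantile-normalized value table deposited by the authors the difference was -0.029 (exact p = 0.16), and after normexp background correction it was -0.016 (exact p = 0.094). Within strata of equal probe length it was -0.037 ± 0.034 (exact p = 0.031, lower in 6 of 8). Leaving out any 1 of C180, C184, C185, C142, C144 and C145 gave -0.059 to -0.051 with an exact p of 0.062.

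The lower level was clearest in the compact long runs. Their median level was -0.222, -0.255, -0.370 and -0.333 in the Ctrl rats and -0.207, -0.354, -0.374 and -0.328 in the PNS rats. In all 8 rats this was below the short runs, with a difference of -0.078 in C141, the smallest, and of -0.21 in C144, the largest. The mean difference was -0.15 ± 0.055 (SD, n = 8; exact sign-flip permutation test, p = 0.0078, the smallest value 8 arrays allow, 0.016 after adjustment over the 4 stretch classes). It was -0.16 ± 0.053 within strata of equal probe length (exact p = 0.0078). In the authors' value table the difference was -0.097 (exact p = 0.0078), and after normexp correction it was -0.049 (exact p = 0.0078).

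The 665 long runs in stretches of 8500 to 9800 bp did not lie below the short runs in this way. Their median level differed from that of the short runs by -0.027 to 0.065 in single rats, was lower in 4 of 8 and averaged 0.010 ± 0.034 above it (exact p = 0.44). In the authors' value table these runs lay 0.042 above short runs (exact p = 0.023). Compact long runs were lower than these in every rat, with differences of -0.24 to -0.053 and a mean of -0.16 ± 0.058 (exact sign-flip permutation test, p = 0.0078). Long runs in stretches of 4000 to 8500 bp were lower than short runs in 8 of 8 rats, by a mean of -0.13 ± 0.061 (exact p = 0.0078, adjusted 0.016). Those in stretches over 9800 bp were lower in 6 of 8, with a mean of -0.075 ± 0.084 (exact p = 0.055, adjusted 0.073).

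**Figure D2:**
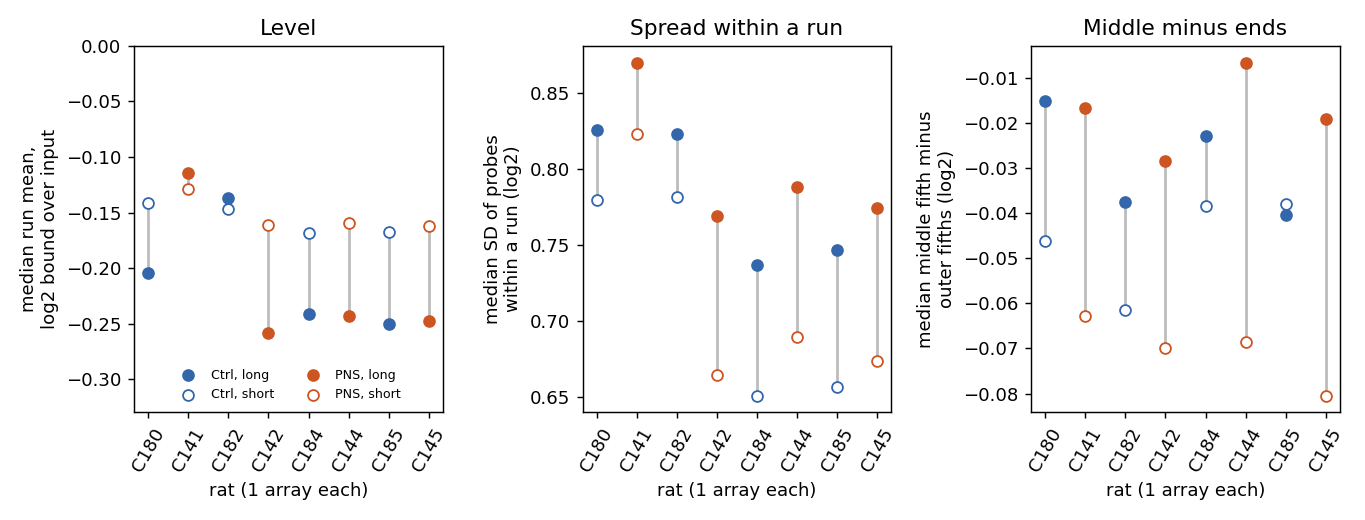
Each rat's median over long runs (filled) and short runs (open) is shown for the level (left), the SD of probes within a run (middle) and the level of the middle of a run minus that of its ends (right, each run divided into 5 equal parts), all on the log2 scale and in slide order, with Ctrl rats in blue and PNS rats in orange. Long runs lay lower in level in 6 of 8 rats, had the larger within-run SD in 8 of 8 and the higher middle in 7 of 8.

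Probes of one long run differed from each other more than those of a short run. The median within-run SD was 0.737 to 0.870 over long runs and 0.651 to 0.824 over short runs, and it was larger in long runs in 8 of 8 rats, by 0.077 ± 0.027 (SD, n = 8; exact sign-flip permutation test, p = 0.0078, adjusted 0.023). This went with the extent of the run. When only the first 1200 bp of every run were used, the sign turned, and the SD in long runs was lower in 8 of 8 rats, with differences of -0.027 to -0.0064 (mean -0.014, exact p = 0.0078). Over the same length of sequence the probes of a long run were thus as alike as those of a single window, or slightly more so.

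The likeness of 2 probes faded with their distance in the same way in both kinds of run. Among non-overlapping probes less than 100 bp apart in a long run, the levels averaged over 8 rats correlated with r = 0.63 (43180 pairs), compared with 0.64 in short runs (118815 pairs). At 500 to 1000 bp r was 0.39 in long and 0.38 in short runs. Beyond the reach of a short run it was 0.21 at 2000 to 4000 bp, 0.14 at 4000 to 8000 bp (451950 pairs) and 0.17 at 8000 to 20000 bp (65030 pairs). The difference between PNS and Ctrl was alike only over short distances: its r between probes was 0.21 within 100 bp, 0.068 at 250 to 500 bp, 0.019 at 2000 to 4000 bp and 0.030 at 8000 to 20000 bp. These correlations are across probes that share arrays and DNA fragments, and they are given as a description.

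Many long runs joined a low and a high segment. Each run was divided into windows of 500 bp with at least 4 probes, the lowest and the highest window were chosen on the 4 Ctrl arrays, and their difference was then measured on the 4 PNS arrays, which had no part in the choice. Of 1464 long runs with at least 2 such windows, 1060 (72.4%) had the higher window above the lower one in all 4 PNS rats, and 63 had a mean difference of the opposite sign. Among short runs these were 5198 (42.1%) and 2309 of 12350. The median difference over long runs was 0.593 in C141, 0.986 in C142, 0.932 in C144 and 0.988 in C145, and over short runs it was 0.248, 0.368, 0.354 and 0.364 in the same rats. It was thus larger in long runs in all 4 rats, and long runs also offered more windows to choose from (median 6, against 2). A mean difference of at least 1 was found in 578 long runs (39.5%) and 847 of 12350 short runs (6.86%), and of at least 2 in 84 and 24. The 2 windows of a long run lay a median of 1500 bp apart.

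The largest such contrast was at chr12:22471867-22474331, a run of 2465 bp singled out after its values were seen. The window chr12:22473867-22474331 had a level of 4.08, 3.85, 3.46 and 3.81 in the Ctrl rats and of 2.43, 4.13, 4.49 and 3.76 in the PNS rats. In the window chr12:22472367-22472866 of the same run the levels lay between -0.159 and 0.391. The higher window was at least 2.43 in every rat, and the lower one stayed near 0 in Ctrl and PNS rats alike.

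**Figure D3:**
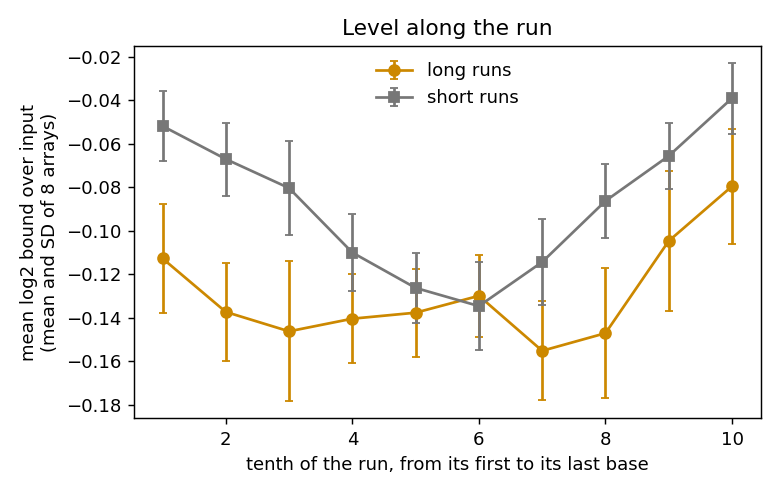
The mean level (y axis, log2 bound over input; points are the mean and bars the SD over 8 arrays) is plotted for 10 equal parts of the run from its first to its last base (x axis) in long runs (orange) and short runs (grey). Short runs dip from -0.052 and -0.039 at the ends to -0.13 in the middle, whereas long runs stay between -0.16 and -0.13 from the second to the eighth part.

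Both kinds of run were higher at their ends than in their middle, but the shapes differed. In short runs the mean level fell from -0.052 ± 0.016 in the first of 10 equal parts to -0.13 ± 0.020 in the sixth and returned to -0.039 ± 0.016 in the last. Long runs began at -0.11 ± 0.025 and ended at -0.080 ± 0.026, with a nearly level course between. With each run divided into 5 equal parts, the median of the middle part minus the outer 2 was -0.040 to -0.0066 in long runs and -0.080 to -0.038 in short runs, as computed per rat. This dip was shallower in long runs as a whole in 7 of 8 rats (all but C185), by 0.035 ± 0.022 (SD, n = 8; exact sign-flip permutation test, p = 0.016, adjusted 0.023). The stretch classes were not alike in this. The mean difference was 0.055 in compact long runs (shallower in 6 of 8 rats). In stretches of 8500 to 9800 bp it was 0.048 (8 of 8). In stretches of 4000 to 8500 bp it was -0.0084 (shallower in 2 of 8), and in stretches over 9800 bp 0.0091 (5 of 8). Counted in bp from the nearer end, the first 250 bp had a mean level of -0.093 ± 0.027 in long and -0.057 ± 0.013 in short runs, and at 500 to 1000 bp the values were -0.15 ± 0.028 and -0.12 ± 0.024. From there on the level of long runs did not fall steadily, with -0.12 ± 0.021 at 1000 to 2000 bp and -0.17 ± 0.034 beyond 4000 bp, the last over 165 runs.

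The level also moved with the length of the probe, in the same order in both kinds of run. In long runs, 45-mers had a mean level of 0.16 ± 0.051, probes of 46 to 52 nt -0.064 ± 0.085, probes of 53 to 59 nt -0.32 ± 0.13 and 60-mers -0.19 ± 0.083 (SD, n = 8). In short runs these were 0.17, -0.016, -0.27 and -0.16. Across the 1476 long runs, the level had a Spearman correlation of -0.27 with the mean probe length and of 0.098 with the span, as a description over regions that share arrays.

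The 5 longest runs were low or close to the middle of the array. After normexp background correction all 5 lay nearer to 0 or above it, as given below. The longest, chr6:132530024-132548513, spanned 18490 bp with 234 probes. Its level was -0.562, -0.511, -0.635 and -0.715 in the Ctrl rats and -0.345, -0.682, -0.605 and -0.707 in the PNS rats, so the groups overlapped. Of its 34 windows of 500 bp, 1 had a mean level above 0 (0.0071, near the end of the run) and the lowest reached -1.48. In the window above 0, several probes of an array shared a single value (0.392 in C144), so its level is not read as enrichment. The same value also occurred elsewhere along the run, for example at about 2.4 kb, so other windows are affected too. With only the probes whose input spots were well above background on all arrays, the level of the run was -0.79. The bound signal was well above background on all 8 arrays for 47 of the 234 probes of this run, and the input signal for 130. The run chr4:105646399-105664008 was as low, with a level of -0.60 ± 0.19 (SD, n = 8) and no window of 27 above 0. The other 3 held both kinds of segment. At chr8:47048710-47065126 the level was -0.16 ± 0.057, with windows from -0.93 to 0.42. At chr16:18426641-18441648 it was -0.28 ± 0.11, with windows from -1.17 to 1.32, and at chr7:127439668-127454196 it was -0.016 ± 0.10, with windows from -1.15 to 0.60. In none of the 5 did the difference between PNS and Ctrl rats pass: it was -0.080 to 0.021, with unadjusted limma p-values of 0.54 to 0.89, and the groups overlapped in each.

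Among long runs with at least 10 tested probes, the highest level was at chr1:230834441-230836455 (2015 bp, 24 probes), with 1.99, 2.04, 2.55 and 2.51 in the Ctrl rats and 1.34, 2.29, 2.33 and 2.30 in the PNS rats. C141 lay apart from the other 3 PNS rats there. Next came chr4:6110746-6113346 with 1.85 ± 0.36 (SD, n = 8), chr10:46741261-46749444 with 1.83 ± 0.44, chr2:200714553-200718178 with 1.67 ± 0.39 and chr3:89573460-89575816 with 1.61 ± 0.48. Neighbours in this order differed by less than 1 SD. The run on chromosome 10 was uneven over its 8184 bp. Its 15 windows of 500 bp were above 0 in the mean of 8 rats, but rose to 3.84 at about 2.25 kb from its start and fell to 0.32 at 7.25 kb, which made it the run with the second largest contrast between windows. C141 was the lowest rat in each of these 5 runs. The 5 lowest were chr3:106891399-106893576 (-1.14 ± 0.37), chr2:251856279-251858753 (-1.01 ± 0.17), chr6:104405485-104407586 (-1.0 ± 0.22), chr1:95601126-95604408 (-0.98 ± 0.33) and chr3:158214306-158216418 (-0.97 ± 0.30). Of these, 4 lay in stretches under 4000 bp, and the run on chromosome 1 lay in a stretch of 9143 bp. The bound signal was well above background on all 8 arrays for 6 of 29 probes of the lowest run, compared with 23 of 24 in the highest. The groups overlapped in all 10 of these runs, with unadjusted p-values of 0.12 to 0.64 in limma fitted across all runs.

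**Figure D4:**
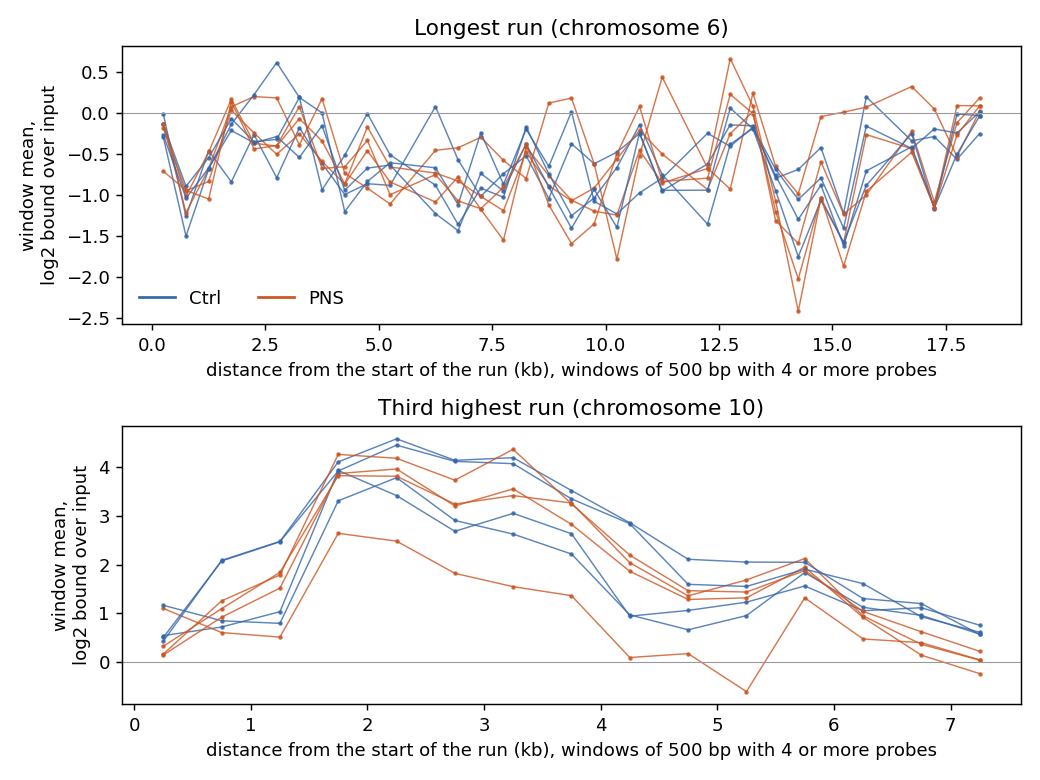
The mean level of each 500 bp window (y axis, log2 bound over input) is drawn against the distance from the start of the run (x axis, kb) for the longest run on chromosome 6 and the third highest run on chromosome 10, with 1 line for each Ctrl rat (blue) and PNS rat (orange). The longest run stays mostly below 0 in all rats, and the run on chromosome 10 peaks at about 2.25 kb, with PNS rat C141 the lowest line there.

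The main question of the design was whether levels differed between PNS and Ctrl rats. Over long runs as a whole they did not differ beyond the spread between rats. The median level over long runs was -0.21 ± 0.052 in Ctrl and -0.22 ± 0.068 in PNS rats (SD, n = 4 each), a difference of -0.0076 (exact permutation test over 70 assignments, two-sided p = 0.83). The level of long minus short runs was -0.052 ± 0.042 in Ctrl and -0.063 ± 0.052 in PNS rats (exact permutation p = 0.54). The excess of within-run SD was 0.066 ± 0.026 in Ctrl and 0.088 ± 0.027 in PNS rats (exact permutation p = 0.17).

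The depth of the dip in the middle was the one summary in which the groups did not overlap. The middle of long runs exceeded that of short runs, relative to the ends, by 0.031, 0.024, 0.016 and -0.0023 in the Ctrl rats and by 0.046, 0.041, 0.062 and 0.061 in the PNS rats. All 4 PNS rats were above all 4 Ctrl rats, and the difference was 0.036 (exact permutation p = 0.029, the smallest 4 against 4 allows, 0.11 after adjustment over the 4 summaries compared between groups). On the single slides it was 0.015, 0.018, 0.046 and 0.064 (exact sign-flip p = 0.12, the smallest 4 slides allow). Most of it came from short runs, in which the middle minus the ends was -0.046 ± 0.011 in Ctrl and -0.070 ± 0.0074 in PNS rats, while in long runs the values were -0.029 ± 0.012 and -0.018 ± 0.0089. Array position moves with group here, and its part in this difference cannot be told apart.

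No single long run differed between PNS and Ctrl rats after adjustment. Run means were compared with limma over all 25622 runs with at least 3 probes, and none of the 1476 long runs had a Benjamini-Hochberg adjusted p of at most 0.2 (0% of all runs tested did, smallest adjusted p 0.9997). At the limit of 0.05 without adjustment, 10 long runs passed, 8 lower and 2 higher in PNS rats, which is 0.678% of long runs. This was below the 4.04% of all runs tested and the 3.48% of short runs. Long runs averaged more probes and varied less between rats (median residual SD 0.168, against 0.239 in short runs), but limma drew every variance towards 1 prior value, which left median SEs of the difference of 0.145 and 0.170. With a prior variance that followed the number of probes in a run, an alternative added after the data had been seen, 50 long runs (3.39%) passed the same limit, compared with 3.84% of all runs tested. These 50 included the 10 above, 33 of them were lower in PNS rats, and again none passed after adjustment.

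Differences in long runs were small. The median absolute difference between the group means was 0.079 in long and 0.12 in short runs. The difference was negative in 800 long runs (54.2%) and positive in 676, with a median of -0.014, compared with 49.7% negative and a median of 0.0012 over all runs tested. PNS and Ctrl arrays did not overlap in 27 long runs that were lower and 24 that were higher in PNS rats, or 3.46% of long runs, close to the 3.24% of all runs tested.

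Single probes gave the same picture. In the first stage of the study's own method, a probe passes if its limma p, before adjustment, is 0.05 or less and its groups differ by at least 0.5 on the log2 scale. This was met by 3510 of 73476 tested probes in long runs (4.78%), near the 4.86% of all probes tested and the 4.82% in short runs. In PNS rats 1683 of them were lower and 1827 higher. They were spread over 1213 of the 1476 long runs, compared with 6974 of 15287 short runs, which have a median of 14 probes against 39, and with 11287 of all 27756 runs that held a tested probe. Of the long runs, 263 had no such probe, 880 had 1 to 3 and 333 had 4 or more, with up to 13 in a run. Lower and higher probes occurred together in 540 runs, 313 had lower ones alone and 360 had higher ones alone. By stretch, the share of such probes was 4.98% in compact long runs, 4.77% in stretches of 4000 to 8500 bp, 4.82% in stretches of 8500 to 9800 bp and 4.56% in longer ones.

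**Figure D5:**
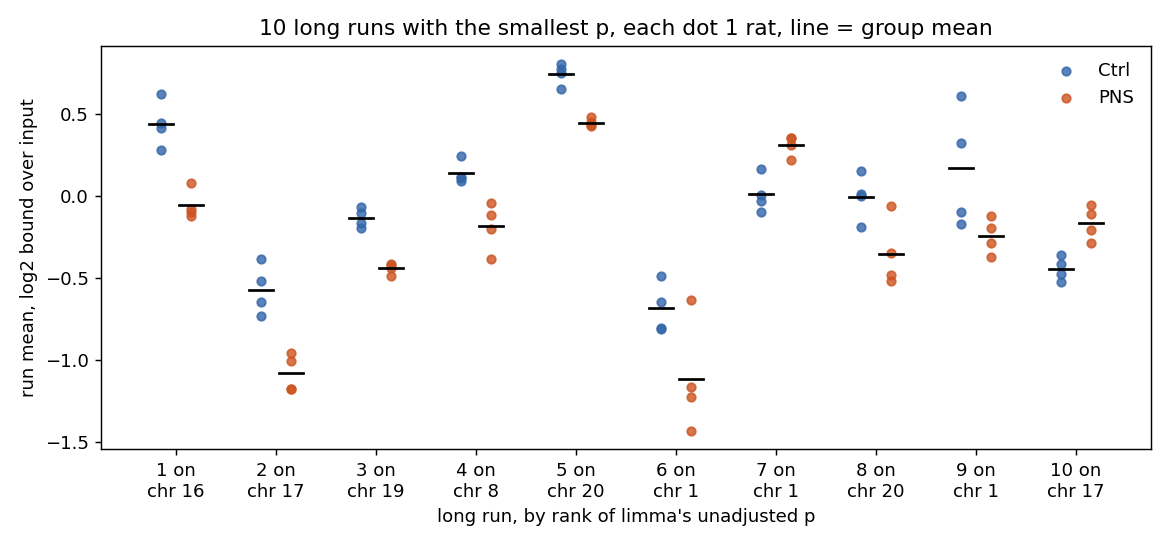
The 10 long runs with the smallest unadjusted limma p are ordered by that p on the x axis and named by chromosome, with each rat's run mean on the y axis (log2 bound over input), Ctrl in blue, PNS in orange and a black line at each group mean. In 7 of the 10 the PNS rats lie wholly below (5 runs) or above (2 runs) the Ctrl rats.

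The 10 long runs with the smallest p are described by their values. The first was chr16:18448699-18450957 (2259 bp, 19 probes), where the level was 0.280, 0.415, 0.622 and 0.447 in the Ctrl rats and 0.0765, -0.0800, -0.121 and -0.100 in the PNS rats. Every PNS rat was below every Ctrl rat, and 18 of the 19 probes were lower in PNS rats. The difference was -0.50 ± 0.13 (SE; limma unadjusted p = 0.0030, adjusted p = 0.9997, exact permutation p = 0.029), and it ranged from -0.74 to -0.20 on the 4 slides. With the slide as a block, limma's unadjusted p was 0.0076. This run lies beyond the end of the fourth longest run on the same chromosome, in another stretch, of 9308 bp.

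At chr17:15352077-15354082 (2006 bp, 20 probes) the level was -0.383, -0.516, -0.735 and -0.650 in the Ctrl rats and -0.956, -1.17, -1.18 and -1.01 in the PNS rats. Again the PNS rats lay wholly below the Ctrl rats, at a locus that was low in both groups. The difference was -0.51 ± 0.14 (SE; limma unadjusted p = 0.0033, exact permutation p = 0.029), and 18 of 20 probes were lower in PNS rats. This was the one of the 10 that kept an unadjusted p of at most 0.05 under each alternative that gave it a value (20), where the difference ranged from -0.74 to -0.28. A gap of 250 bp gave none, as the middle of the run then lay in no tested run, and the same holds for the first run and for chr1:164719230-164721778. The first run kept its call under 19 of 20. At a gap of 1000 bp the run around its middle had a difference of -0.18 (limma unadjusted p = 0.21).

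At chr20:5090162-5094714 (4553 bp, 61 probes) the level was 0.651, 0.775, 0.748 and 0.803 in the Ctrl rats and 0.431, 0.449, 0.428 and 0.484 in the PNS rats. The PNS values were tightly grouped below the Ctrl values, and 51 of 61 probes were lower. The difference was -0.30 ± 0.12 (SE; limma unadjusted p = 0.030), and on the 4 slides it ran from -0.33 to -0.22. A second run on this chromosome, chr20:4845205-4847228, had levels of -0.189, 0.150, 0.0122 and 0.00066 in Ctrl and -0.0597, -0.349, -0.516 and -0.480 in PNS rats. There C141 was within the Ctrl range and the groups overlapped (difference -0.34 ± 0.15 (SE), limma unadjusted p = 0.040).

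The 2 runs that were higher in PNS rats were chr1:164719230-164721778 and chr17:55138804-55142445. At the first the level was -0.0287, -0.0972, 0.0029 and 0.164 in the Ctrl rats and 0.352, 0.221, 0.308 and 0.355 in the PNS rats. All PNS rats were above all Ctrl rats and 26 of 27 probes were higher (difference 0.30 ± 0.13 (SE), limma unadjusted p = 0.036). At the second, the level was -0.527, -0.477, -0.362 and -0.412 in Ctrl and -0.109, -0.286, -0.0529 and -0.210 in PNS rats. Here too the groups did not overlap, 40 of 56 probes were higher, and the difference was 0.28 ± 0.13 (SE; limma unadjusted p = 0.047). In this second run the input signal was well above background on all 8 arrays for 14 of the 56 probes, and the bound signal for 6. Its unadjusted p stayed at 0.05 or less in 3 of 21 alternatives, and leaving out any 1 array ended the call (limma unadjusted p = 0.052 to 0.13). The first run kept its call in 8 of 20.

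The other 4 were lower in PNS rats, by 0.31 at chr19:35110045-35112410, by 0.33 at chr8:47930289-47932417, by 0.43 at chr1:95488891-95490981 and by 0.41 at chr1:86177541-86179744 (limma unadjusted p = 0.025 to 0.045). The groups did not overlap in the first pair and overlapped in the second. At chr19:35110045-35112410 the input signal was well above background on all 8 arrays for 10 of 28 probes, and the bound signal for 7. With the slide as a block, 4 of the 10 runs had an unadjusted limma p above 0.05, namely both runs on chromosome 20 (0.050 and 0.059) and both runs that were higher in PNS rats (0.050 and 0.066). At chr1:86177541-86179744 the Ctrl rats themselves were spread from -0.169 in C180 to 0.611 in C184, and the difference on the 4 slides ran from -0.98 to -0.098. Of the 10 runs, 7 lay in stretches of over 5000 bp that also held other runs. Leaving out a single array took the unadjusted p above 0.05 at least once in 8 of the 10, all but the first and the second.

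The count of long runs with an unadjusted p of at most 0.05 moved with single arrays. Among the 3 arrays of narrow spread, it was 55 without C141, 18 without C180 and 11 without C182. Among the others it was 2, 2 and 5 without C142, C144 and C145 and 10 and 14 without C184 and C185. With 1 array left out, the share over all runs tested was not computed. When C180, C182 and C141 were all left out, 2 Ctrl and 3 PNS rats remained. Then 89 long runs (6.03%) had an unadjusted p of at most 0.05, below the 15.8% of all runs tested and the 15.1% of short runs. An adjusted p of at most 0.2 was reached by 18 long runs (1.22%), 17 lower and 1 higher in PNS rats. At that adjusted limit the same fit called 5.78% of all runs tested and 5.27% of short runs. Over all 8 rats, which include the 5 that chose them, 5 of the 18 had an unadjusted p of at most 0.05 and the p-values went up to 0.58. The 5 are among the 10 runs above, on chromosomes 16, 17 and 20 and, with 2 runs, on chromosome 1. The median absolute difference of the 18 was 0.51 with 5 arrays and 0.31 with 8. What sets the 3 arrays apart was not tested.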

How the data were processed

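Male rat PFC DNA was assayed by MeDIP-chip (4 Ctrl, 4 PNS, 1 array each). The authors scanned the arrays with Feature Extraction 10.7.3.1; the deposited intensity values of both channels are background-corrected and dye-scaled within arrays. The deposited log10 ratio of the software and the authors' deposited log2 table, quantile-normalized ratios of background-subtracted median signals (rank correlation with the scanner values at least 0.999998), served as alternatives. The authors designed probes from -1000 to 200 bp around annotated start sites, per their methods, and used limma. From the files, 5503 control spots and 405 spots flagged on any array were dropped, spots of 1 probe averaged, and log2 ratios of bound over input of 375108 probes quantile-normalized. PNS and Ctrl entered the linear models of limma 3.58.1 (R 4.3.3). The authors' deconvolution could not be repeated, and their rank-sum test over neighbouring probes was not run. Arrays give no depth, and their number limits the precision.

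Runs named by position are the 5 longest, the 5 highest and 5 lowest in level (at least 10 tested probes) and the 10 with the smallest unadjusted p. Members, classes and tests were chosen with earlier results of these data known. Alternatives were other signals, background correction and normalization, dim and flagged spots, gaps of 250 and 1000 bp, a span of 2500 bp, run medians, a slide block and arrays left out. Stretch classes, probe-length strata, the first 1200 bp, the authors' table, the prior that follows probe number and the group comparisons of spread and dip were chosen after seeing the data. Scripts were tested on simulated data. No 2 arrays held identical values. Gene names and sequences are not used here.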

Additional observations from a re-analysis of the deposited data

Results flagged for a closer look

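In the 4 PNS rats, the array of C141 lay apart from the other 3 in several measures, as judged by the gap to its nearest neighbour divided by the range of the group (Dixon's ratio, above its critical value for 4 arrays). Its median level over long runs was -0.114, against -0.258 to -0.243 (ratio 0.896), its long minus short level was 0.015, against -0.097 to -0.083 (ratio 0.880), and its excess of within-run SD was 0.047, against 0.099 to 0.10 (ratio 0.899). C141 was also the lowest rat at chr1:230834441-230836455 (1.34, against 2.29 to 2.33, ratio 0.955), chr2:200714553-200718178 (0.868, against 1.77 to 1.91, ratio 0.870) and chr3:89573460-89575816 (0.811, against 1.72 to 1.86, ratio 0.866), and the highest at chr1:95601126-95604408 (-0.538, against -1.31 to -1.18, ratio 0.842). Each of these levels, the long minus short level included, was nearer to 0 in C141 than in the other 3 PNS rats. Its within-run SD itself was the largest of the 8 rats in long (0.870) and in short runs (0.824). A total of 58 groups of 4 arrays were examined and 7 met this rule, where chance gives about 1 in 20, and the groups share arrays.

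The shallower dip in the middle of long compared with short runs was larger in PNS than in Ctrl rats, by 0.036 (exact permutation p = 0.029, adjusted p = 0.11 over 4 comparisons). It stayed positive under all alternatives run, and its p was above 0.05 in 7 of 20, namely after normexp (0.0095, p = 0.26), with gaps of 250 bp (0.023, p = 0.14) and 1000 bp (0.040, p = 0.20), with bright input spots alone (0.044, p = 0.20), without the 3 arrays of low spread (0.056, p = 0.10), in the authors' value table (0.042, p = 0.057) and with the slide as a block (0.036, p = 0.12).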

How the results depend on the processing

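The lower level of long runs kept its sign in all 21 alternatives, with p above 0.05 after normexp correction (-0.016, exact p = 0.094), in the authors' value table (-0.029, exact p = 0.16) and without the 3 arrays of low spread (-0.099, exact p = 0.062, the smallest 5 arrays allow); leaving out 1 array gave -0.071 to -0.051 (exact p = 0.031 to 0.062, as named above). For compact long runs the sign and the call held in 16 of 17, all but the one without the 3 arrays (-0.22, p = 0.062), and for long runs in stretches of 8500 to 9800 bp the sign turned after loess (-0.0046, p = 0.65) and the difference passed in the authors' value table (0.042, p = 0.023). Without the 3 arrays the excess within-run SD was 0.11 and the middle-minus-ends difference 0.044 (both exact p = 0.062). The excess SD turned to -0.014 over the first 1200 bp of each run, as reported above. The PNS minus Ctrl difference of the median level turned to 0.0029 with run medians and was -0.044 to 0.017 with 1 array left out (0.017 without C182, 0.0050 without C142, 0.0017 without C144 and 0.0032 without C145); that of long minus short levels turned to 0.0092 with run medians and was -0.038 to 0.011 with 1 array left out (0.011 without C182).

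The 10 long runs with an unadjusted p of at most 0.05 became 20 with median centring, 44 after normexp, 5 with a gap of 250 bp (1111 long runs), 3 from a span of 2500 bp on (1097 long runs), 19 with run medians, 20 in the authors' value table, 50 with the prior that follows probe number, 89 without the 3 arrays (18 adjusted) and 2 to 55 with 1 array left out. The 50 were 3.39% of long runs, against 3.84% of all runs tested, and the 89 were 6.03%, against 15.8%. For the other alternatives no share over all runs was computed, nor one over all probes for the first-stage counts that follow. Those counts do not show whether long runs moved apart from the array as a whole. First-stage probes fell from 3510 to 462 after normexp, 1763 with bright input spots alone (44340 probes tested) and 2228 with a gap of 250 bp, and rose to 7292 without the 3 arrays; leaving out 1 array gave 2482 to 6774. The slide as a replicate block gave 12 long runs and 4368 first-stage probes and changed no count by over 1.5 times. The PNS minus Ctrl differences of level (-0.0076) and of long minus short (-0.011) are the same with it. Deviations of the 2 arrays of a slide correlated with r of 0.20, -0.12, 0.18 and 0.20 in slide order. Whether the slides paired the rats was not tested. All 10 named differences kept their sign in the 207 values the alternatives gave and an unadjusted p of at most 0.05 in 121; the slide block ended 4 of these calls, as named above. Levels of the longest, highest and lowest runs moved by at least their SD over 8 rats in 42 of 314 values. With bright input spots alone the longest run was at -0.79. After normexp it was at -0.088 and the one on chromosome 4 at -0.090. Those on chromosomes 8, 16 and 7 were at 0.087, 0.063 and 0.15. The 5 lowest runs were then at -0.32 to -0.21 and the 5 highest at 1.30 to 1.73. Strata of CpG number were not run, as no probe sequence was used. The cause of these changes was not tested.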
